A study of Mus musculus with 12 samples.

Results

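The 10 genes described here load and activate the replicative DNA helicase: the 6 subunits of the MCM2-7 ring (Mcm2, Mcm3, Mcm4, Mcm5, Mcm6 and Mcm7) and 4 factors that load it or switch it on (Mcm10, Cdc45, Cdc6 and Cdt1). They were taken by gene symbol from the deposited tables, and all 10 were among 33641 genes read there and among 15130 that had enough reads to be tested. The samples were peritoneal macrophages, the phagocytes that reside in the abdominal cavity, from untreated mice at day 0. RNA sequencing covered 4 genotypes with 3 libraries each, namely WT (wild type), SAMHD1 KO and MDA5 KO (each lacking a single gene) and SAMHD1 MDA5 DKO (lacking both). SAMHD1 breaks down deoxynucleotides, the building blocks of DNA, and MDA5, made from the gene Ifih1, senses long double-stranded RNA in the cytosol. The series title concerns MDA5 activation where SAMHD1 is deficient. The labels give no strain, age or sex. Nothing in them says that libraries of a genotype are separate animals, so the p-values measure only the spread between these libraries.

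Before S phase, the origin recognition complex and Cdc6 recruit Cdt1, which delivers the MCM2-7 ring to DNA, a step called licensing. In S phase, Cdc45 and the GINS complex join the ring to form the active helicase, with Mcm10 needed for its activation, and geminin binds Cdt1 to prevent a repeat of licensing. Their genes are well-known targets of E2F transcription factors and are expressed at low levels in cells that have left the cell cycle. Resident macrophages of the peritoneal cavity keep a capacity for self-renewal by division.

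The E2F word lies in the promoters of several of these genes, so the stretches that hold it are shown first. Promoter windows of 300 bases, from 250 before to 50 after the annotated start, were taken from RefSeq on build GRCm38.p6, and 9 of the 10 genes had one, all but Mcm4. A window was searched on both strands for the words TTTCCCGC, TTTCGCGC, TTTGCCGC and TTTGGCGC. The windows of Mcm3, Mcm5, Mcm6, Mcm7, Cdc6 and Cdt1 held at least 1 word, which is 6 of 9 genes, against 2.26% of 32851 windows genome-wide. The stretches of 30 bases below read 5′ to 3′ on the strand of the gene, with the word in capitals (GCGGGAAA is TTTCCCGC read on the other strand). In Mcm5 and Mcm6 the capitals cover a pair of overlapping words on opposite strands. One stretch is shown per gene, and Mcm3, Mcm6 and Mcm7 each held a further word that is not shown. Their positions are chr1:20820275-20820304 (minus strand) for Mcm3, chr8:75109347-75109376 (plus) for Mcm5, chr1:128359795-128359824 (minus) for Mcm6, chr5:138171849-138171878 (minus) for Mcm7, chr11:98908002-98908031 (plus) for Cdc6 and chr8:122568035-122568064 (plus) for Cdt1.
Mcm3: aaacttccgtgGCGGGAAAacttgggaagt
Mcm5: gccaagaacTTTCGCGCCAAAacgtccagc
Mcm6: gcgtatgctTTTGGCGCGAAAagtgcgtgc
Mcm7: gggtgacgacgTTTCGCGCcaatttcggtt
Cdc6: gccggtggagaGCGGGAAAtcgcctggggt
Cdt1: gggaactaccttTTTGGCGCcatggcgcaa
The windows of Mcm2, Mcm10 and Cdc45 held none of the 4 words, and the word CCAAT was in the windows of 7 of 9 genes against 37.4% of all windows.

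Libraries held 33234361 to 58345425 reads, and read numbers scaled by size factors (medians of ratios) are called normalised reads. Samhd1 lay at 1747 to 4960.4 normalised reads in the 6 libraries without SAMHD1 and at 7067 to 17462 in the other 6, and Ifih1 at 0 to 41.9 in the 6 libraries without MDA5 and at 816 to 3745 in the others, so both knockouts matched their labels. WT 3 stood apart: it had the lowest Samhd1 and Ifih1 of the libraries that should express each gene, and its summed reads of 7 macrophage markers were 597028 against 1798210 to 5196170 in the other 11. Lyz2 made most of that gap, at 215984 in WT 3 and 1457330 to 4930210 in the other 11. Itgam and Mertk were also lowest in WT 3, whereas Adgre1 was highest there (243370). Csf1r, Cd68 and Cd14 lay within the range of the other libraries. All 7 of these markers, and all 6 markers of large peritoneal macrophages, had reads in every library. SAMHD1 KO 2 and SAMHD1 KO 3 were the closest libraries of any genotype, with a median chi-square of 1.70 over 13912 genes, against 6.70 or more for every other pair within a genotype and 0.455 under sampling noise alone. Over the 10 genes this pair had 1.17. They were kept as separate libraries, but these values do not tell whether they come from separate animals. Of 1038 olfactory receptor genes, which macrophages hardly express, 800 had a read in MDA5 KO 2 and 107 to 194 in each other library. Because of WT 3, and of SAMHD1 KO 1, the lowest library for most of the 10 genes, the differences between genotypes are also given without these libraries, a choice made after seeing the data. In tissue samples of this kind, fewer dividing cells and less RNA per cell cannot be told apart.

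Per kilobase of gene model, reads of the MCM2-7 subunits were not equal, and those of the loading and activating factors other than Cdt1 were far lower. The deposited gene lengths ran from 2252 bases (Cdc45) to 7692 (Mcm10), with 6956 for Mcm2. Whether the transcripts in these cells have those lengths was not tested, so the order of the genes depends on them. Over the 12 libraries the median was 443 normalised reads per kb for Mcm6, 438 for Mcm3, 373 for Mcm4, 292 for Mcm5, 200.5 for Mcm7 and 123 for Mcm2. Cdt1 had 208, Cdc45 60.0, Cdc6 34.8 and Mcm10 18.3. The ranges of neighbours in this order overlapped across libraries.

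The subunit genes shared 1 pattern over the libraries: low in all 3 SAMHD1 KO libraries, highest in WT 3, and between these in most others. Mcm2 (ENSMUSG00000002870, chromosome 6, 88883474 to 88898780), whose protein sits at the gate through which the ring opens, had 944, 574 and 2662 normalised reads in libraries 1, 2 and 3 of WT. The SAMHD1 KO values were 378, 417 and 515, the MDA5 KO values 769.7, 1832 and 1885, and the SAMHD1 MDA5 DKO values 644, 1064 and 1603. Every SAMHD1 KO library thus lay below every library of the other 3 genotypes. Mcm5 (ENSMUSG00000005410, chromosome 8, 75109569 to 75128439), the partner of Mcm2 at the gate, had WT values of 1143, 783 and 7437 and SAMHD1 KO values of 288, 675 and 631. The MDA5 KO values were 1188, 2282 and 2631, the SAMHD1 MDA5 DKO values 735, 1482 and 2026. It had the widest range of the 10 genes, 25.9-fold from SAMHD1 KO 1 to WT 3, and again all 3 SAMHD1 KO libraries lay below the other 9.

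Mcm4 and Mcm6, with Mcm7 the subunits of a core complex that unwinds DNA by itself in vitro, separated SAMHD1 KO from all other genotypes as well. Mcm4 (ENSMUSG00000022673, chromosome 16, 15623897 to 15637400) had WT values of 1395, 1104 and 2505, SAMHD1 KO values of 919.6, 956 and 855, MDA5 KO values of 1285, 2388 and 2344 and SAMHD1 MDA5 DKO values of 1186, 1875 and 1899. Mcm6 (ENSMUSG00000026355, chromosome 1, 128331590 to 128359664) had WT values of 1974, 1725 and 5507, SAMHD1 KO values of 1380.3, 1267 and 1218, MDA5 KO values of 2159, 3570.4 and 3856 and SAMHD1 MDA5 DKO values of 1599, 2623 and 3684. For both genes the 3 SAMHD1 KO libraries lay close together and under the other 9. Mcm3 (ENSMUSG00000041859, chromosome 1, 20802968 to 20820312), a further subunit of the ring, had WT values of 1476, 1269.6 and 3314 and SAMHD1 KO values of 1295, 1319 and 1277, so that WT 2 was its lowest library. The MDA5 KO values were 1812, 2826 and 2638 and the SAMHD1 MDA5 DKO values 1425, 2124 and 2647. Mcm7 (ENSMUSG00000029730, chromosome 5, 138164583 to 138172422) had WT values of 802, 823 and 3809, SAMHD1 KO values of 331, 792 and 811, MDA5 KO values of 952, 1329 and 1719 and SAMHD1 MDA5 DKO values of 783, 1102 and 1399. SAMHD1 KO 2 and 3 were level with WT 1 and 2 for Mcm7, and SAMHD1 KO 1 was far below them. Exons of Mcm7 overlap those of Cops6 and Ap4m1 on the other strand, and no source used here says that strand was counted, so its reads could include theirs.

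Among the loading and activating factors, Cdt1 was the steadiest gene and Mcm10 one of the most variable. Cdt1 (ENSMUSG00000006585, chromosome 8, 122568015 to 122573554), which brings the ring to the origin, had WT values of 638, 619 and 981, SAMHD1 KO values of 461, 557 and 544, MDA5 KO values of 824, 671 and 788 and SAMHD1 MDA5 DKO values of 589, 798 and 723. Its range was 2.13-fold, the narrowest of the 10, and SAMHD1 KO still lay below the other 9 libraries. Cdc6 (ENSMUSG00000017499, chromosome 11, 98907801 to 98923940), the ATPase that works with the origin recognition complex, had WT values of 113, 117 and 495, SAMHD1 KO values of 64.0, 122 and 141, MDA5 KO values of 267, 426 and 294 and SAMHD1 MDA5 DKO values of 97.5, 223 and 267. Here WT 1 and 2 were in the range of SAMHD1 KO, and all MDA5 KO libraries were above it.

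Mcm10 (ENSMUSG00000026669, chromosome 2, 4989714 to 5012791) had WT values of 93.0, 96.6 and 169, SAMHD1 KO values of 15.0, 91.8 and 112, MDA5 KO values of 217, 359.7 and 317 and SAMHD1 MDA5 DKO values of 52.2, 231 and 228. It was the only one of the 10 genes whose highest library was not WT 3 but MDA5 KO 2, and its MDA5 KO libraries lay above all WT libraries. Cdc45 (ENSMUSG00000000028, chromosome 16, 18780447 to 18811987) had WT values of 100.4, 80.1 and 609, SAMHD1 KO values of 29.9, 81.5 and 136, MDA5 KO values of 175, 169.8 and 207 and SAMHD1 MDA5 DKO values of 83.6, 160.4 and 135. Its exons overlap those of Ufd1 on the other strand, with the same limit as for Mcm7. The lowest values rested on 18 reads for Mcm10 and 36 for Cdc45, both in SAMHD1 KO 1, whereas no subunit gene had under 346 reads in any library.

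**Figure D1:**
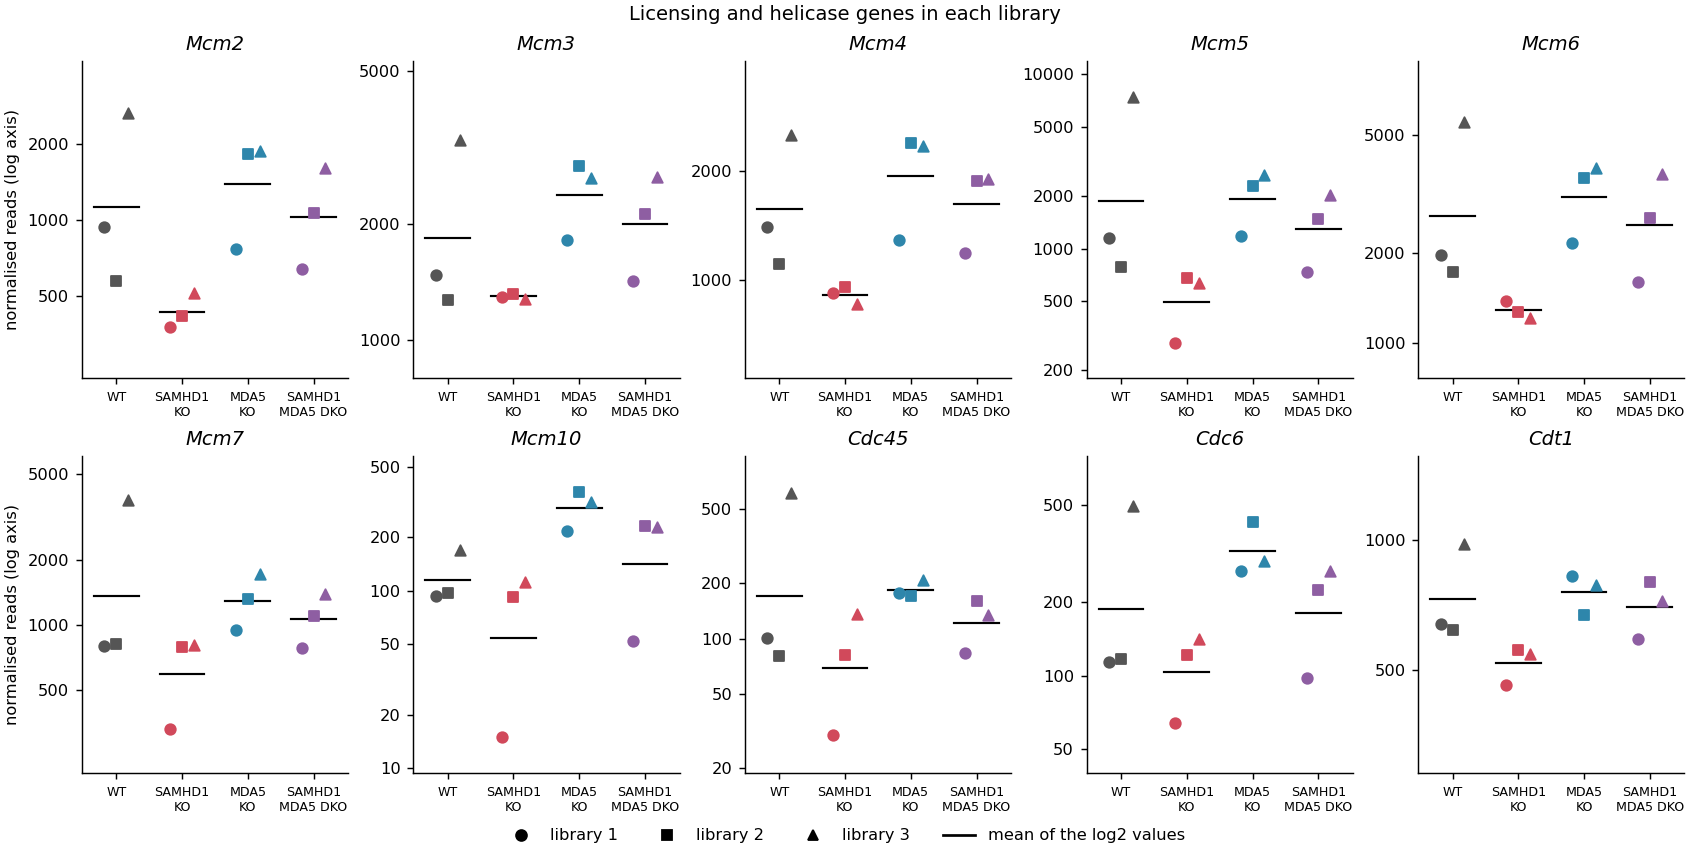
Normalised reads (log axis) of the 10 genes in the 12 libraries, grouped by genotype, with 1 symbol for each library number and a bar at the mean of the log2 values. WT 3 is the highest library in 9 of 10 panels and SAMHD1 KO 1 the lowest in 7, and the SAMHD1 KO points lie below the MDA5 KO points in every panel.

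By mean log2 value, MDA5 KO ranked highest of the 4 genotypes for 9 genes, all but Mcm7, for which it was WT, and SAMHD1 KO ranked lowest for all 10. WT came second for 6 genes and SAMHD1 MDA5 DKO for 3. Neighbours in this order overlapped between libraries in every case except the last step, where SAMHD1 KO lay below its neighbour without overlap for Mcm2, Mcm4, Mcm5, Mcm6 and Cdt1. Over all genes tested, SAMHD1 KO lay below SAMHD1 MDA5 DKO without overlap for 9.14% and below WT for 7.85%. The share of all genes with such an order of the 4 genotypes, or with SAMHD1 KO below every other library, is not given here.

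Libraries of 1 genotype differed widely. On the scale of log2(normalised reads + 1), the SD within a genotype had a median of 0.777 over the 10 genes, from 0.24 for Cdt1 to 1.05 for Mcm5, against a median of 0.430 over all tested genes. WT 3 had 1.56 to 7.73 times the mean of the other WT libraries, with a median of 3.24. SAMHD1 KO 1 had 0.147 to 1.11 times the mean of its genotype's other libraries and was lowest of all 12 for 7 genes. SAMHD1 MDA5 DKO 1 had 0.228 to 0.775 times, and MDA5 KO 1 0.414 to 1.13 times, the mean of the other libraries of their genotype.

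SAMHD1 KO against MDA5 KO was the comparison in which the genes differed most. All 10 were lower in SAMHD1 KO, with a median log2 difference of -1.33, or 2.51-fold, against -0.01 over all genes tested. The 3 SAMHD1 KO libraries lay below the 3 MDA5 KO libraries for all 10 genes, which held for 8.74% of all genes. Mcm10 differed by -2.40 ± 0.72 (SE), Mcm5 by -1.95 ± 0.70, Mcm2 by -1.68 ± 0.52, Cdc6 by -1.63 ± 0.56 and Cdc45 by -1.39 ± 0.69. Mcm6 differed by -1.27 ± 0.42, Mcm7 by -1.12 ± 0.54, Mcm4 by -1.09 ± 0.32, Mcm3 by -0.88 ± 0.34 and Cdt1 by -0.55 ± 0.22. In limma with Benjamini-Hochberg adjustment over all genes, none passed 0.05 (smallest adjusted p = 0.425), where 0.00661% of all genes did. Unadjusted, 8 of 10 were under 0.05, against 9.53% of all genes.

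Leaving out WT 3 and SAMHD1 KO 1 kept the sign of all 10 differences and narrowed their errors, and 6 genes passed in limma, Mcm2, Mcm3, Mcm4, Mcm5, Mcm6 and Cdc6, with adjusted p from 0.0201 to 0.0446, where 12.5% of all genes passed downward. The median was then -1.19, with Mcm6 at -1.32 ± 0.33 and Mcm5 at -1.56 ± 0.46. Without SAMHD1 KO 1, Mcm10 shrank from -2.40 to -1.51, Cdc45 from -1.39 to -0.80 and Mcm7 from -1.12 to -0.69. The SAMHD1 KO libraries left there were the close pair 2 and 3. With all 12 libraries in voom and library quality weights, which count a library that stands apart for less, all 10 passed where 20.3% of all genes did downward, and with array quality weights 9 passed against 22.7%. In the authors' deposited table, Mcm10 and those 6 genes were called lower, where 0.321% of genes were called in that direction. Without MDA5 KO 2 the median was -1.30. The summed level of 6 markers of small peritoneal macrophages and monocytes also separated these genotypes, at 6471 to 9745 normalised reads in SAMHD1 KO and 11953 to 32576 in MDA5 KO. Most of it was Retnla, at 3494 to 6571 and 8732 to 27503. Of these 6 markers, 5 had reads in every library and Ly6c2 had none in 2 MDA5 KO libraries. Summed erythroid markers ran the other way, at 372 to 585 in SAMHD1 KO and 19.98 to 101.8 in MDA5 KO, with 0 of 5 genes read in every library. Summed B cell markers were at 169 to 223 and 343 to 367, with 4 of 8 genes read in every library. The part of these cells in the difference was not tested.

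With SAMHD1 absent, the mean of each of the 10 genes was higher where MDA5 was absent as well. SAMHD1 MDA5 DKO minus SAMHD1 KO had a median of 0.83, or 1.78-fold, against 0.02 over all genes. The libraries of the genotypes did not overlap for 6 genes, Mcm2, Mcm3, Mcm4, Mcm5, Mcm6 and Cdt1, where 9.14% of all genes were as clearly higher. Mcm5 differed by 1.39 ± 0.70, Mcm10 by 1.36 ± 0.72, Mcm2 by 1.25 ± 0.52, Mcm6 by 0.95 ± 0.42, Mcm4 by 0.83 ± 0.32 and Mcm3 by 0.63 ± 0.34. The other 4 lay between 0.43 (Cdt1) and 0.83 (Mcm7). None passed in limma (smallest adjusted p = 0.562), where 0.0132% of all genes did, and 3 of 10 were under 0.05 unadjusted, against 8.81%. The authors' deposited table called Mcm2, Mcm4, Mcm5 and Mcm6 higher, where 0.352% of genes were called in that direction. Without SAMHD1 KO 1, the median was 0.54 and all 10 genes were positive, but Mcm10 went from 1.36 to 0.46, Cdc45 from 0.80 to 0.21, Mcm7 from 0.83 to 0.41 and Cdc6 from 0.80 to 0.46. Without WT 3 as well, 0 of 10 passed in limma, where 12.6% of all genes passed upward, with a smallest adjusted p of 0.0553 for Mcm6. The fits with library quality weights called 6 genes each, against 21.6% of all genes upward with voom and 23.5% with array weights. SAMHD1 MDA5 DKO 1 was the lowest library of its genotype for every one of the 10 genes. The summed small peritoneal macrophage and monocyte markers were higher here too, with 14099 to 44798 in SAMHD1 MDA5 DKO and no overlap with SAMHD1 KO. Most of that sum was Retnla, at 10545.5 to 41753 in SAMHD1 MDA5 DKO and 3494 to 6571 in SAMHD1 KO. Ly6c2 ran the other way without overlap (0.697 to 1.76, against 9.18 to 12.5 in SAMHD1 KO). Each of the other markers in that list overlapped. Erythroid markers (1.76 to 84.9) and mast cell markers (1519 to 2597, against 2971 to 3762 in SAMHD1 KO, with 4 of 7 genes read in every library) were lower without overlap. Most of the mast cell sum was Hdc, which by itself overlapped (1508 to 2385 in SAMHD1 MDA5 DKO, 1755 to 3583 in SAMHD1 KO). The part of these cells was not tested.

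Comparisons with WT turned on WT 3. SAMHD1 KO minus WT, which asks what SAMHD1 loss does with MDA5 present, had a median of -1.06 with all 10 genes negative, against 0.03 over all genes. The differences ran from -1.92 ± 0.70 for Mcm5 and -1.38 ± 0.52 for Mcm2 to -0.49 ± 0.22 for Cdt1. For 5 genes (Mcm2, Mcm4, Mcm5, Mcm6 and Cdt1) the libraries did not overlap, where 7.85% of all genes were as clearly lower. No gene passed in limma (smallest adjusted p = 0.312), nor did any of the 15130 genes (0%), and 6 of 10 were under 0.05 unadjusted, against 15.4%. The authors' deposited table called Mcm2 and Mcm5 lower, where 0.191% of genes were. Array quality weights called 2 genes, where 21% of all genes were called lower, and voom with quality weights called 0, where 7.46% were called lower. The median was -0.45 without WT 3 and -0.13 without both libraries, when Mcm10, Cdc45 and Cdc6 turned positive (0.10 ± 0.60, 0.23 ± 0.37 and 0.18 ± 0.41). With both left out, 0 of 10 passed in limma, where 2.54% of all genes did, and Mcm2, Mcm4, Mcm5 and Mcm6 lay at -0.67 ± 0.53, -0.46 ± 0.31, -0.53 ± 0.50 and -0.57 ± 0.37.

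MDA5 KO minus WT, which asks for the effect of MDA5 loss with SAMHD1 present, had a median of 0.26 with 9 of 10 genes positive, or 0.85 with all 10 positive without WT 3. All genes tested had a median of 0.08. No gene passed in limma (smallest adjusted p = 0.266), where 0.00661% did, and 0 of 10 were under 0.05 unadjusted, against 22.4%. Mcm10 differed by 1.33 ± 0.72 and Cdc6 by 0.78 ± 0.56, the others by -0.07 (Mcm7) to 0.37 (Mcm3). Without WT 3 and SAMHD1 KO 1, 0 of 10 passed in limma, where 1.3% of all genes passed upward, with Mcm10 at 1.61 ± 0.55, Cdc6 at 1.48 ± 0.38 (adjusted p = 0.0600), Mcm5 at 1.02 ± 0.46 and Cdc45 at 1.02 ± 0.33. Mcm10 alone did not overlap, where 13.9% of all genes were as clearly higher. Voom with quality weights called 1 of the 10, where 1.2% of all genes were called higher, and array weights called 9, where 15.3% were. The authors' deposited table called 5 genes higher, Mcm3, Mcm5, Mcm6, Mcm10 and Cdc6, where 1.11% of genes were.

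Between genotypes that both lack MDA5, SAMHD1 MDA5 DKO minus MDA5 KO had a median of -0.37 with all 10 genes negative. Mcm10 differed by -1.05 ± 0.72 and Cdc6 by -0.84 ± 0.56, and the rest by -0.59 to -0.12. Only Cdc45 did not overlap, where 4.1% of all genes were as clearly lower. In limma, 0 of 10 genes passed, as did 0 of 15130 genes (0%), with 0 of 10 under 0.05 unadjusted against 1.02% of all genes, and the authors' deposited table called none, where 0.159% of its genes were called. Summed mast cell markers (1519 to 2597 in SAMHD1 MDA5 DKO, 2757 to 4461 in MDA5 KO) were also lower without overlap. Most of that sum was Hdc (1508 to 2385 and 2392 to 3605), and each of the other mast cell markers overlapped. Summed macrophage markers (1798210 to 2076960 and 2158640 to 2382710) were lower without overlap as well. Most of that sum was Lyz2 (1501400 to 1751060 and 1848360 to 2058510), and each of the other macrophage markers overlapped. The part of these cells was not tested. SAMHD1 MDA5 DKO minus WT had a median of -0.08 with 3 of 10 genes positive, from -0.53 ± 0.70 (Mcm5) to 0.29 ± 0.72 (Mcm10), and 0.45 with all 10 positive without WT 3. None passed in limma (smallest adjusted p = 0.623), where 0.00661% did, and 0 of 10 were under 0.05 unadjusted, against 27.8%. The authors' deposited table called none of the 10, where 7.42% of its genes were called, and array quality weights called 2, where 38.1% of all genes were. Summed mast cell (WT 3548 to 14599), T and NK cell (9.75 to 24.4 in SAMHD1 MDA5 DKO, 27.0 to 454 in WT) and granulocyte markers (68.3 to 95.6 and 99.5 to 314) were lower here without overlap, and their part was not tested. In WT 1 and WT 3 most of the mast cell sum was Hdc, at 4574 and 2797. The interaction, which asks whether MDA5 loss acts differently with and without SAMHD1, had a median of 0.61 and a smallest adjusted p of 0.894 in limma, where 0 of 15130 genes (0%) passed, with 0 of 10 genes under 0.05 unadjusted against 3.21%. Without both libraries its median was -0.10, with 4 of 10 positive. The comparisons share libraries, so they are not independent of each other.

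**Figure D2:**
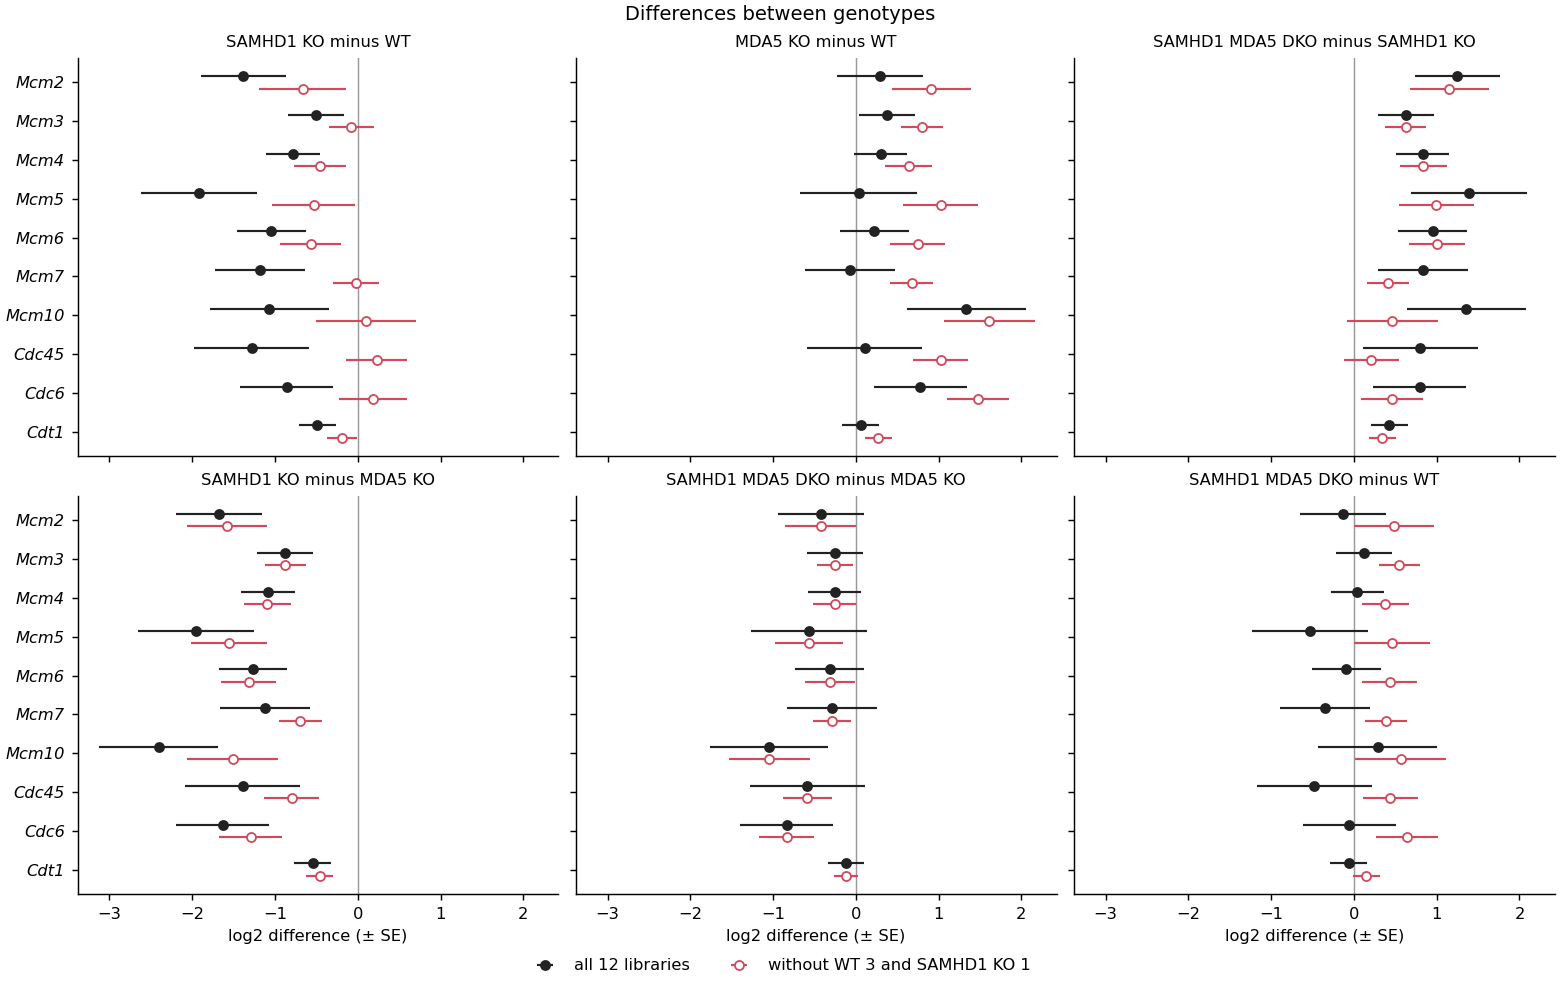
Log2 difference of each gene (points) with its standard error (bars) in the 6 comparisons between genotypes, with all 12 libraries (filled) and without WT 3 and SAMHD1 KO 1 (open). The differences of SAMHD1 KO minus MDA5 KO and of SAMHD1 MDA5 DKO minus SAMHD1 KO keep their sign for all 10 genes, whereas Cdc45 in SAMHD1 KO minus WT goes from -1.28 to 0.23.

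The deposited values treat WT 3, SAMHD1 KO 2 and SAMHD1 MDA5 DKO 3 as a set of their own, and differences were therefore taken inside and outside that set. Outside it, the median over the 10 genes was -0.50 for SAMHD1 KO minus WT with all 10 negative, and inside it, with 1 library per genotype, -2.07. For SAMHD1 MDA5 DKO minus SAMHD1 KO these medians were 0.80 and 1.07, with all 10 genes positive in both. SAMHD1 KO minus MDA5 KO, which has no MDA5 KO library inside the set, had -1.41 outside it. For MDA5 KO minus WT the value outside was 0.85 and for SAMHD1 MDA5 DKO minus MDA5 KO -0.63, while SAMHD1 MDA5 DKO minus WT had 0.20 outside and -0.66 inside.

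The make-up of the helicase genes was also unlike in WT 3. The 6 subunits add up to 1 ring, so their reads per kb were summed and each was expressed as a share. The sum was 5868 in WT 3, 1480.1 and 1808 in the other WT libraries, 1099 to 1297 in SAMHD1 KO, 1927 to 3501 in MDA5 KO and 1506 to 3078 in SAMHD1 MDA5 DKO. SAMHD1 KO was thus the lowest genotype in the sum, without overlap. Mcm5 made up 31.7% of the sum in WT 3, 6.56% in SAMHD1 KO 1 and 12.2% to 18.8% in the other 10 libraries. Mcm3 had 15.1% in WT 3 against 20.1% to 31.4% elsewhere, and Mcm4 11.9% against 17.2% to 23.3%. The ratio of Mcm5 to Mcm6 per kb was 1.58 in WT 3, 0.244 in SAMHD1 KO 1 and 0.530 to 0.797 in the others. WT 3 was thus not a scaled copy of the other libraries.

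**Figure D3:**
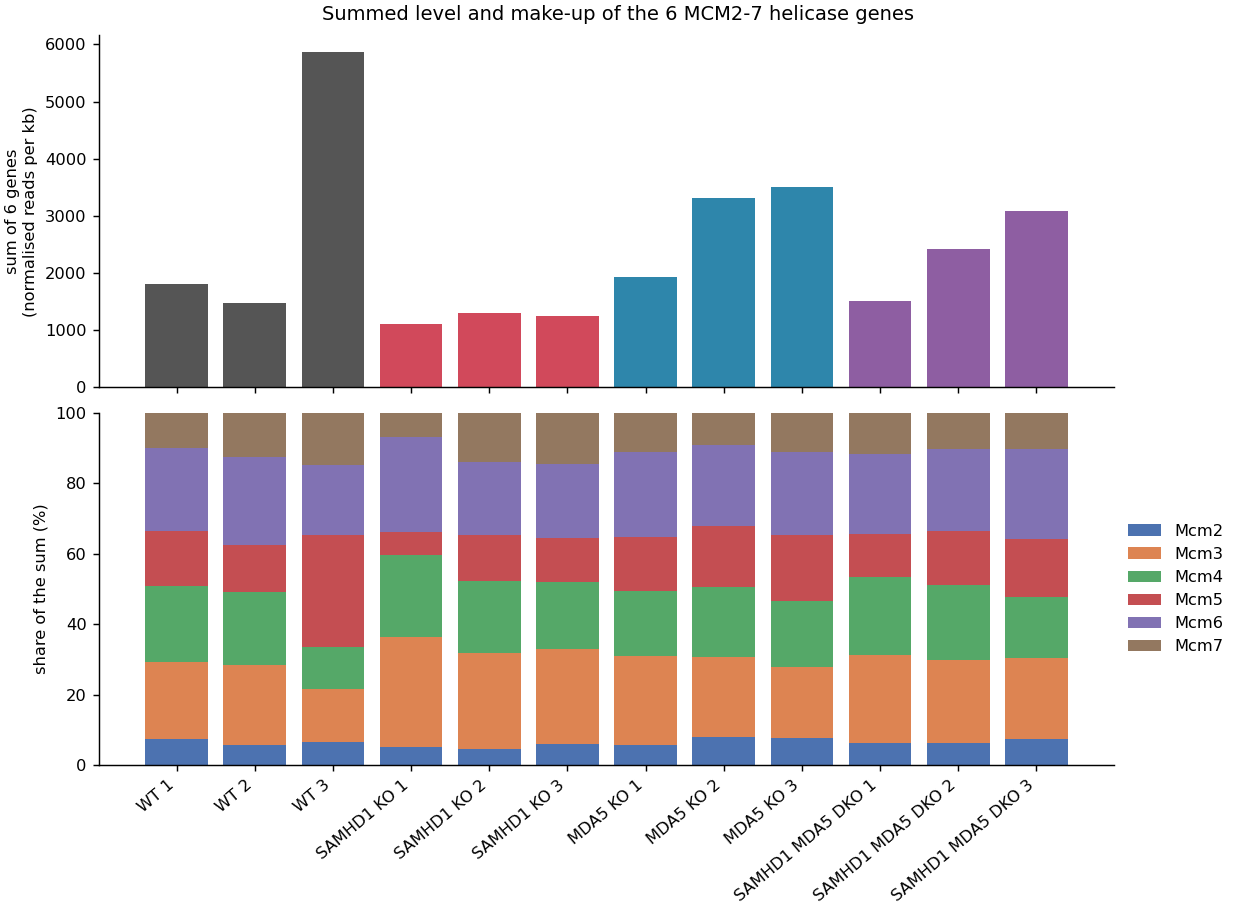
Upper panel, sum of the normalised reads per kb of the 6 subunit genes in each library, coloured by genotype. Lower panel, the share of each gene in that sum, where Mcm5 takes 31.7% in WT 3 and 6.56% in SAMHD1 KO 1.

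Among 94 tested genes of the replication pathway and cell cycle outside the 10, 0 passed in limma in any of the 6 comparisons or the interaction, where at most 0.0132% of all genes did. In SAMHD1 KO minus MDA5 KO, 74 of 94 were negative with a median of -0.44, and 23 of 94 were under 0.05 unadjusted, 21 of them lower, against 9.53% of all genes. Of the origin recognition complex, which marks origins before licensing, 2 of 6 genes were negative with a median of 0.07, and Orc3 and Orc4 differed by 0.08 ± 0.16 and 0.28 ± 0.21. The negative ones were Orc1 (-1.84 ± 0.89, at a mean of 33.9 normalised reads) and Orc2 (-0.04 ± 0.19). GINS, the partner of Cdc45, had 3 of 4 negative and a median of -0.50, with Gins2 at -1.29 ± 0.79 and Gins4 at 0.57 ± 0.30. Polymerases and fork proteins had 17 of 22 negative and a median of -0.38, with Pcna, the sliding clamp, at -0.08 ± 0.39 and Rpa1, which coats single-stranded DNA, at 0.03 ± 0.19. Firing kinases and factors had 9 of 11 negative and a median of -0.77, with Topbp1 at -0.77 ± 0.19 and Cdk2 at -0.43 ± 0.26.

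Of the regulators of licensing, Gmnn, which encodes geminin, differed by 0.16 ± 0.52 and Mcmbp, whose protein binds the MCM subunits, by -0.41 ± 0.22. Of the listed parts of ubiquitin ligases that act on Cdt1, 4 of 4 genes were negative, with a median of -0.52. Cul4a was at -0.11 ± 0.19, Ddb1 at -0.33 ± 0.23, Skp2 at -0.71 ± 0.34 and Dtl at -2.64 ± 0.92. Without WT 3 and SAMHD1 KO 1, Dtl was at -1.44 ± 0.52. Mcm8 and Mcm9, paralogues that act in recombination outside the ring, differed by -0.03 ± 0.40 and -0.23 ± 0.30. In the E2F and RB list, which holds the regulators of the E2F factors, 15 of 18 were negative with a median of -0.38. Ccnd1 and Ccnd3, which encode cyclins of the G1 phase, differed by -2.18 ± 0.60 and -0.57 ± 0.26. CDK inhibitors were split, with 4 of 7 negative, Cdkn1a at -0.56 ± 0.24 and Cdkn1b at 0.90 ± 0.29.

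By the mean log2 value of each list, genes of mitosis and of nucleotide supply were also lowest in SAMHD1 KO 1 and highest in WT 3, although Mki67, Top2a and Bub1 were highest in MDA5 KO libraries. Without WT 3 and SAMHD1 KO 1, the medians of both lists were smaller than that of the licensing genes in SAMHD1 KO minus MDA5 KO. They were opposite in sign to it in SAMHD1 MDA5 DKO minus SAMHD1 KO. Elsewhere this did not always hold. In SAMHD1 MDA5 DKO minus MDA5 KO the medians were -0.85 (mitosis) and -0.56 (nucleotide supply), against -0.37 for the licensing genes. In the interaction they were -1.56 and -0.72, against -0.10. In SAMHD1 KO minus MDA5 KO, the 12 mitosis genes had a median of -1.23 with all 12 negative, and -0.06 with 7 of 12 negative without the 2 libraries. The 10 licensing genes had -1.33 and -1.19. In SAMHD1 MDA5 DKO minus SAMHD1 KO, the mitosis median was 0.50 and then -0.66, where the licensing genes had 0.83 and 0.54. Mki67, a proliferation marker, had 279, 1279 and 1327 normalised reads in the SAMHD1 KO libraries. Its WT values were 612, 722 and 672, its MDA5 KO values 2350.1, 2262 and 2019, and its SAMHD1 MDA5 DKO values 769.7, 1551 and 1575. Thus SAMHD1 KO 2 and 3 were above all WT libraries for Mki67 and below WT 1 and 2 for Mcm2. Top2a, the topoisomerase that untangles chromosomes, had SAMHD1 KO values of 172, 1522 and 1586 and WT values of 851, 1222 and 2186. Genes that supply deoxynucleotides in S phase had a median of -0.96 in SAMHD1 KO minus MDA5 KO, or -0.44 without the 2 libraries, with Rrm1, a subunit of ribonucleotide reductase, at -0.996 ± 0.34 and Tyms, thymidylate synthase, at 0.26 ± 0.54.

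The mean log2 value of each list, taken relative to its median library, shows the same contrast. MCM2-7 lay at 1.63 in WT 3, -1.01 in SAMHD1 KO 1 and -0.58 in both SAMHD1 KO 2 and 3. Mitosis genes lay at 1.56 in WT 3 and -3.23 in SAMHD1 KO 1, but at 0.22 and 0.11 in SAMHD1 KO 2 and 3. The mean of the origin recognition complex genes stayed between -0.57 and 0.50 in all libraries. No test of the difference between lists was made, since the lists were chosen with earlier results known. Without WT 3 and SAMHD1 KO 1, 21 of the 94 genes passed in limma in SAMHD1 KO minus MDA5 KO, 16 of them lower, where 12.5% of all genes passed downward and 12.1% upward. Pold1, Pole, Pola2, Lig1, Timeless, Wdhd1 and Rrm1 were among the lower genes, and Cdkn1b, Cdkn1c, Cdkn2c, Gins4 and Rpa3 were the 5 higher ones.

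**Figure D4:**
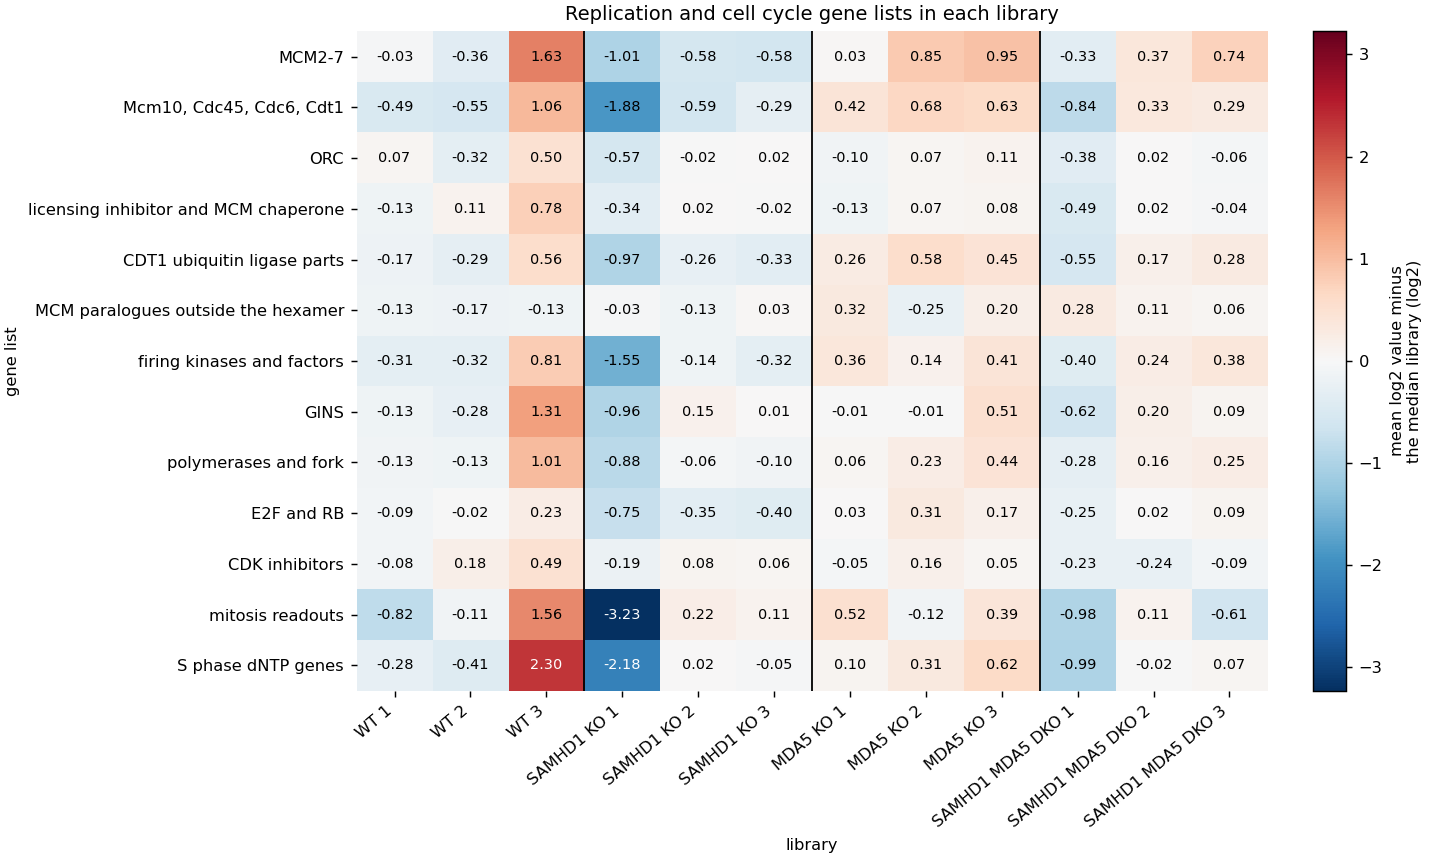
Mean log2 value of 13 gene lists in each of the 12 libraries (columns), minus that of the median library of the list, in colour and printed in each cell. Of these, 8 are highest in WT 3 and lowest in SAMHD1 KO 1, while the E2F and RB list and the CDT1 ligase list are highest in MDA5 KO 2, the CDK inhibitors and the pair of Gmnn and Mcmbp are lowest in SAMHD1 MDA5 DKO libraries, and the MCM paralogues are neither.

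The genes of the group went together over the 12 libraries. The 45 pairs of the 10 genes had Pearson correlations of 0.685 to 0.976 with a median of 0.875, and of 0.667 to 0.985 without WT 3 and SAMHD1 KO 1, the libraries farthest from the median. With the mean log2 value of Mcm2 to Mcm7, Cdt1 correlated at r = 0.87, Cdc6 at 0.92, Cdc45 at 0.88 and Mcm10 at 0.75. The median r over all genes was -0.05. Without WT 3 and SAMHD1 KO 1, r was 0.73 for Cdt1, 0.85 for Cdc6, 0.74 for Cdc45 and 0.86 for Mcm10. Outside the 10 genes and the lists, the highest correlations with that mean were those of Cdca7 (r = 0.99, rho = 0.97), Ung (0.97 and 0.95), Tmem238 (0.96 and 0.92), Hells (0.95 and 0.93) and 2610203C22Rik (0.95 and 0.92). Cdca7 had SAMHD1 KO values of 42.4, 70.0 and 67.3 normalised reads and MDA5 KO values of 117, 325 and 374. Ung, a uracil DNA glycosylase, had SAMHD1 KO values of 10.8, 12.6 and 15.9 and MDA5 KO values of 42.8, 187 and 172. Both genes were thus lower in SAMHD1 KO without overlap, as were 8.74% of all genes. They were picked for likeness to a mean that was itself lower there, so this is no separate result. Without the 2 libraries, the closest were Cdca7, Mthfd2, Idh2, Ppfibp1 and Ipo5, so that only Cdca7 was among the 5 in both. These values describe 12 libraries that share preparation and scaling, and they carry no test.

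Of the 5 genes that adjoin or overlap one of the 10, Prkdc and Ap4m1 ran against their licensing genes in WT 3. Aprt, Cops6 and Ufd1 did not. Prkdc, which adjoins Mcm4 and encodes the DNA-dependent protein kinase, had WT values of 682, 414 and 284 normalised reads and SAMHD1 KO values of 894, 735 and 666, so that WT 3 was its lowest library and Mcm4's highest. Aprt, which adjoins Cdt1 and encodes a purine salvage enzyme, had WT values of 1320.1, 1190.5 and 3594 and SAMHD1 KO values of 837, 1133 and 1137. Cops6, which encodes a subunit of the COP9 signalosome and overlaps Mcm7, was added after the values were seen. It had WT values of 2681, 2943 and 9641, SAMHD1 KO values of 2202, 2653 and 2677, MDA5 KO values of 1939, 2245 and 2779 and SAMHD1 MDA5 DKO values of 1991, 1920.4 and 2714. WT 3 was thus far above the other 11 libraries for Cops6 as for Mcm7. For Ap4m1, which also overlaps Mcm7, WT 3 was the lowest library, with WT values of 937, 884 and 699. Whether shared reads play a part was not tested. In SAMHD1 KO minus MDA5 KO, Cops6 differed by 0.12 ± 0.39, Prkdc by -0.49 ± 0.31, Aprt by -0.23 ± 0.36, Ap4m1, next to Mcm7, by 0.32 ± 0.26, and Ufd1l, the files' name for Ufd1 next to Cdc45, by 0.15 ± 0.21. The microRNAs Mir25, Mir93 and Mir106b inside Mcm7 were not analysed here.

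The library columns deposited by the authors would have given another picture of the spread between libraries. In those log2 values the SD within a genotype had a median of 0.420 over the 10 genes, against 0.777 from the reads. For Mcm5 in the table of SAMHD1 KO and WT, the deposited values were 10.99, 10.49 and 11.89 in WT and 9.21, 8.55 and 10.18 in SAMHD1 KO. SAMHD1 KO 2 thus appears there below SAMHD1 KO 1, although it held 675 normalised reads of Mcm5 against 288. Among the values of MDA5 KO and SAMHD1 KO the same library was deposited at 9.98, above SAMHD1 KO 1 and 3 at 8.47 and 9.31. A deposited library value therefore depends on the table it is read from.

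**Figure D5:**
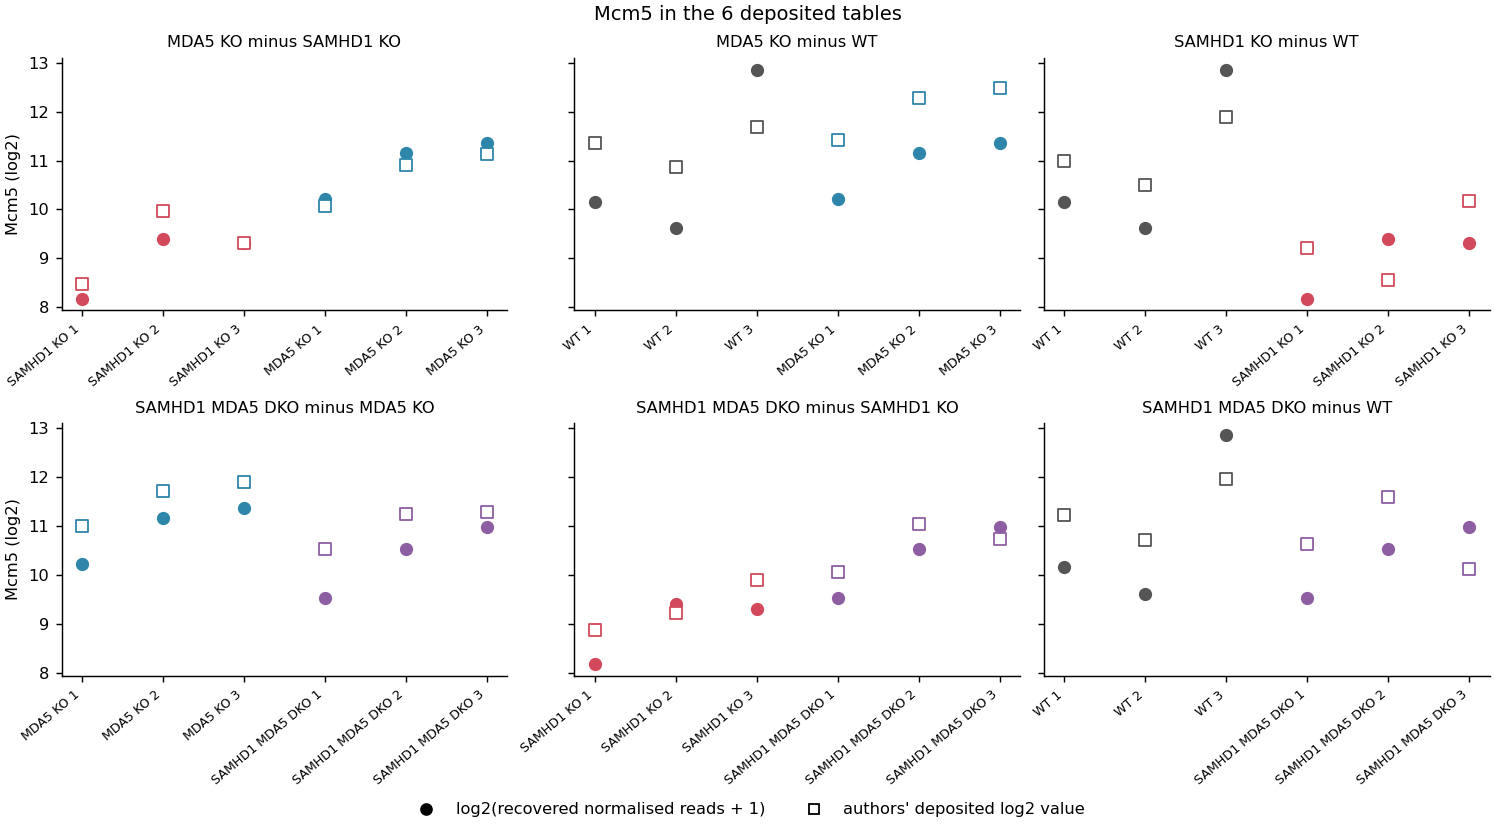
Mcm5 on the log2 scale in the 6 libraries of each deposited table, from the reads (filled circles) and as deposited (open squares), coloured by genotype. The order of the libraries changes between the 2 kinds of value in all tables but those of MDA5 KO and SAMHD1 KO and of SAMHD1 MDA5 DKO and MDA5 KO, and SAMHD1 KO 2 is deposited at 8.55 in one table and at 9.98 in another.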

How the data were processed

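RNA was extracted with a column kit, and the libraries are of total RNA, per the labels. Per the submitters' processing notes, STAR, Salmon, R 4.1.2 and DESeq2 were used with GRCm38 (mm10). The labels' protocol names other tools as well (bedtools 2.16.2, pBWA 0.5.9-r32-MPI-patch2, with Ensembl Gene 61), and which tools made the tables is not given in the sources used here. The authors deposited 6 tables of 6 libraries each, with log2 library columns, a mean signal of scaled reads, a log2 fold change with its error and a test score, a p-value and an adjusted p-value. The authors' deposited GC content, in percent, the test score and the weights beside the adjusted p-value were not used for any result. From the values, the log2 columns are variance-stabilised reads from which the mean difference between WT 3, SAMHD1 KO 2 and SAMHD1 MDA5 DKO 3 and the other libraries was taken out gene by gene. No label gives the reason. The columns were inverted to whole reads: 100% of genes in every table were within 0.05 reads of a whole number, and tables sharing a library disagreed in 0 genes. The recovery and the fit were tested on simulated data.

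Size factors were medians of ratios over 12 libraries. A gene was tested if 3 or more libraries reached a CPM of 0.228, which is 10 reads at the median depth. Log2(normalised reads + 1) was fitted on genotype alone in limma 3.58.1 (R 4.3.3; robust, with a trend), and p-values were adjusted by Benjamini-Hochberg over 15130 genes, with 0.05 as the threshold. Fold changes of low genes are understated on that scale. The reads were recovered from log2 columns, so this fit was kept as the main one, with voom on the recovered reads as an alternative. Standard errors are those of limma, with 3 libraries per genotype. Reads carry no molecular identifiers, so read numbers cover counting error only. The authors' adjusted p covers 27706 to 31499 genes per table, so their calls are on another footing. Positions are those of the files on GRCm38, equal to GENCODE M21 for all 10 genes.

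The 10 genes, the lists and the tests were chosen with earlier results of these data known. All 10 genes are named. From each pathway list every gene past the threshold and the 2 of highest mean reads are named, as are genes that adjoin one of the 10, Samhd1, Ifih1 and the 5 genes most like the MCM2-7 mean. Genes passing without WT 3 and SAMHD1 KO 1, Mki67, Top2a and Bub1, Cops6, and the second set of 5 like genes were added after the values were seen. So were Orc1, Orc2, Dtl and Skp2. Of the marker lists, B cell, T and NK cell and mast cell sums were highest in WT 2 (5504, 454 and 14599 normalised reads, against at most 431, 86.2 and 4703 elsewhere). Granulocyte sums were 36.8 to 355, dendritic cell sums 616 to 4237, mesothelial and fibroblast sums 7.70 to 134 and erythroid sums 1.76 to 585. For SAMHD1 MDA5 DKO minus WT and the interaction, alternatives were run on the counts and medians alone. Values of some single marker genes are not reported here.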

Additional observations from a re-analysis of the deposited data

How the results depend on the processing

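Across 16 alternatives beside the leave-one-out fits, the median over the 10 genes stayed negative in SAMHD1 KO minus MDA5 KO (-1.64 to -0.83), SAMHD1 KO minus WT (-1.12 to -0.13) and SAMHD1 MDA5 DKO minus MDA5 KO (-0.70 to -0.32), and positive in SAMHD1 MDA5 DKO minus SAMHD1 KO (0.48 to 0.94) and MDA5 KO minus WT (0.23 to 1.10). It ran from -0.13 to 0.52 in SAMHD1 MDA5 DKO minus WT and, over 13 alternatives, from -0.47 to 0.72 in the interaction. Counts of genes passing in limma moved from 0 as follows. With voom and library quality weights they were 6 in SAMHD1 MDA5 DKO minus SAMHD1 KO, 1 in MDA5 KO minus WT and 10 in SAMHD1 KO minus MDA5 KO. With array quality weights they were 2 in SAMHD1 KO minus WT, 6 in SAMHD1 MDA5 DKO minus SAMHD1 KO, 9 in MDA5 KO minus WT, 2 in SAMHD1 MDA5 DKO minus WT and 9 in SAMHD1 KO minus MDA5 KO. By the authors' deposited adjusted p the counts were 2, 4, 5 and 7 in SAMHD1 KO minus WT, SAMHD1 MDA5 DKO minus SAMHD1 KO, MDA5 KO minus WT and SAMHD1 KO minus MDA5 KO. In limma without WT 3 and SAMHD1 KO 1, chosen after seeing the data, the count was 6 in SAMHD1 KO minus MDA5 KO. Medians moved by more than 0.65, the SD within a genotype of the mean log2 value over the 10 genes, to -0.15 (voom with quality weights), -0.13 (array weights) and -0.13 (without both libraries) in SAMHD1 KO minus WT, to 0.98 and 1.10 (the 2 weighted fits) in MDA5 KO minus WT, and to -0.27, -0.47 and -0.10 in the interaction. The median SD within genotypes over the 10 genes was 0.42 in the deposited log2 values against 0.78 from the reads. Signs turned in SAMHD1 KO minus WT for Mcm10 (0.039, 0.11, 0.10), Cdc45 (0.23, 0.53, 0.23) and Cdc6 (0.13, 0.19, 0.18) under the same 3 fits. In MDA5 KO minus WT, Mcm7 turned to 0.80 and 0.86 (weighted fits), 0.31 (adjusted set as a term), 0.48 (deposited values), 0.56 (authors' fold) and 0.67 (without both). The cause was not tested. Without each library in turn, 0 genes passed in every comparison, with medians of -1.28 to -0.45 (SAMHD1 KO minus WT), 0.54 to 1.15 (SAMHD1 MDA5 DKO minus SAMHD1 KO), -0.08 to 0.85 (MDA5 KO minus WT), -0.63 to -0.07 (SAMHD1 MDA5 DKO minus MDA5 KO), -0.40 to 0.45 (SAMHD1 MDA5 DKO minus WT), -1.57 to -1.19 (SAMHD1 KO minus MDA5 KO) and 0.16 to 0.91 (interaction). In MDA5 KO minus WT, signs then turned for Mcm2 (-0.19 to 0.91), Mcm5 (-0.60 to 1.02), Mcm6 (-0.090 to 0.75), Mcm7 (-0.45 to 0.67), Cdc45 (-0.43 to 1.02) and Cdt1 (-0.061 to 0.27), and in SAMHD1 MDA5 DKO minus MDA5 KO for Mcm6 (-0.60 to 0.0052) and Cdt1 (-0.22 to 0.0022). No label says that the replicate numbers mark pairs. Same-numbered libraries had residual correlations of -0.06 to 0.34, 8 of 18 over 0.1, and 9 of 12 libraries correlated best with their own number. Whether same-numbered libraries share an animal, litter or batch is not given. With the replicate block, 0 genes passed in every comparison. Each number occurs once in each genotype, so the block cannot move the differences. The medians were therefore those of the fit without it by design (-1.33 in SAMHD1 KO minus MDA5 KO) and are no check of them. Depth limits Mcm10 most, with 18 reads in its lowest library, and the other 9 genes had at least 36 reads in every library.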
